A study of Mus musculus with 3 samples.

Results

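Chromatin regulator genes were taken as the protein-coding autosomal genes of the Kdm, Kmt, Hdac, Chd, Arid, Brd, Setd and Smarc families whose own identifier was attached to events in the deposited tables, whatever their values. Chdh, a choline dehydrogenase, and Brd3os, the gene on the opposite strand of Brd3, share only letters with these families and were left out. The annotation holds 82 such genes, and 69 of them were members by this rule, out of 11191 protein-coding autosomal genes with an identifier in the tables. Another 8 family genes (Arid2, Chd2, Hdac5, Kdm2b, Setd1a, Setd1b, Smarca4 and Smarca5) had events inside them on their own strand that carried the identifier of a neighbouring gene; they are given by position and kept out of counts over the 69 members. Family genes on the sex chromosomes were not used. No event was listed for Arid3a, Arid3c, Chd5, Hdac9 and Kdm4d, and a gene without alternative structures can be missing from such tables.

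The libraries were RNA sequencing of normal liver labelled wild type (WT), healthy, male and C57BL/6, an inbred mouse strain, and they form 1 group of 3 replicates. The series asks about driver genes in liver cancer, and tumours were not analysed here, so no contrast between conditions was made. The labels do not give an age, nor do they tie each library to an animal of its own, so spread between libraries, and every p-value built on it, may be technical. Levels are in FPKM, which divides fragments by the length of the transcript and the size of the library, and were deposited per event: a first exon, a last exon, a skipped exon, a retained intron or an exon end. Each value was taken to add up every assembled transcript with that structure.

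DNA in the nucleus is wound around histones, and the proteins described here write, erase or read chemical marks on histones or use ATP to move them. Methyltransferases (Kmt, Setd) add methyl groups, demethylases (Kdm) take them off, deacetylases (Hdac) remove acetyl groups and bromodomain proteins (Brd) bind acetylated lysines. SWI/SNF, a remodelling complex of Smarc and Arid subunits, and the CHD remodellers open or space nucleosomes. In liver these complexes act with hepatocyte transcription factors, and Arid1a, Arid2 and several Kmt2 genes are recurrently mutated in human liver cancer.

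All 6 hepatocyte markers had a value, and their sum ranged between 33249 and 37911 FPKM. Markers of other cells were present at lower summed levels, between 80.1 and 123 FPKM for 5 Kupffer cell genes, between 45.3 and 55 FPKM for 4 sinusoidal endothelial genes, between 107 and 139 FPKM for 3 of 4 stellate genes (Lrat was not listed), between 26.5 and 41.1 FPKM for 4 B cell genes, between 4.36 and 5.06 FPKM for 4 T and NK cell genes, between 2.11 and 7.71 FPKM for 3 neutrophil genes and between 2.16 and 3.69 FPKM for 4 cholangiocyte genes. The 4 genes of dividing cells summed to between 1.46 and 2.90 FPKM. The share of each chromatin regulator that came from these cells was not tested, and fewer cells of a type cannot be told apart from less RNA per cell. The data went against the label male. Xist, the RNA of the inactive X chromosome, had 65.7, 53.9 and 46.4 FPKM in replicates 1, 2 and 3, while Uty, Ddx3y, Eif2s3y and Kdm5d on the Y chromosome held no event.

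Gene level was the largest of the summed first exons, the summed last exons and, in loci of 1 gene, the highest internal event, which is a lower bound on the gene's expression. On this measure 60 of the 69 members had a mean of at least 1 FPKM, against 76.7% of the 11778 protein-coding autosomal genes with a value. Their median was 3.22 FPKM, against 3.77 FPKM over all genes, and 31 of 69 members lay above the median of all. Few members were abundant: 15.9% reached 10 FPKM, against 26.7% of all genes, while 34 members lay between 1 and 5 FPKM. A value was found in each of the 3 libraries for 66 members, the exceptions being Hdac4, Kmt2a and Setd7, each with 0 in replicate 1.

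**Figure D1:**
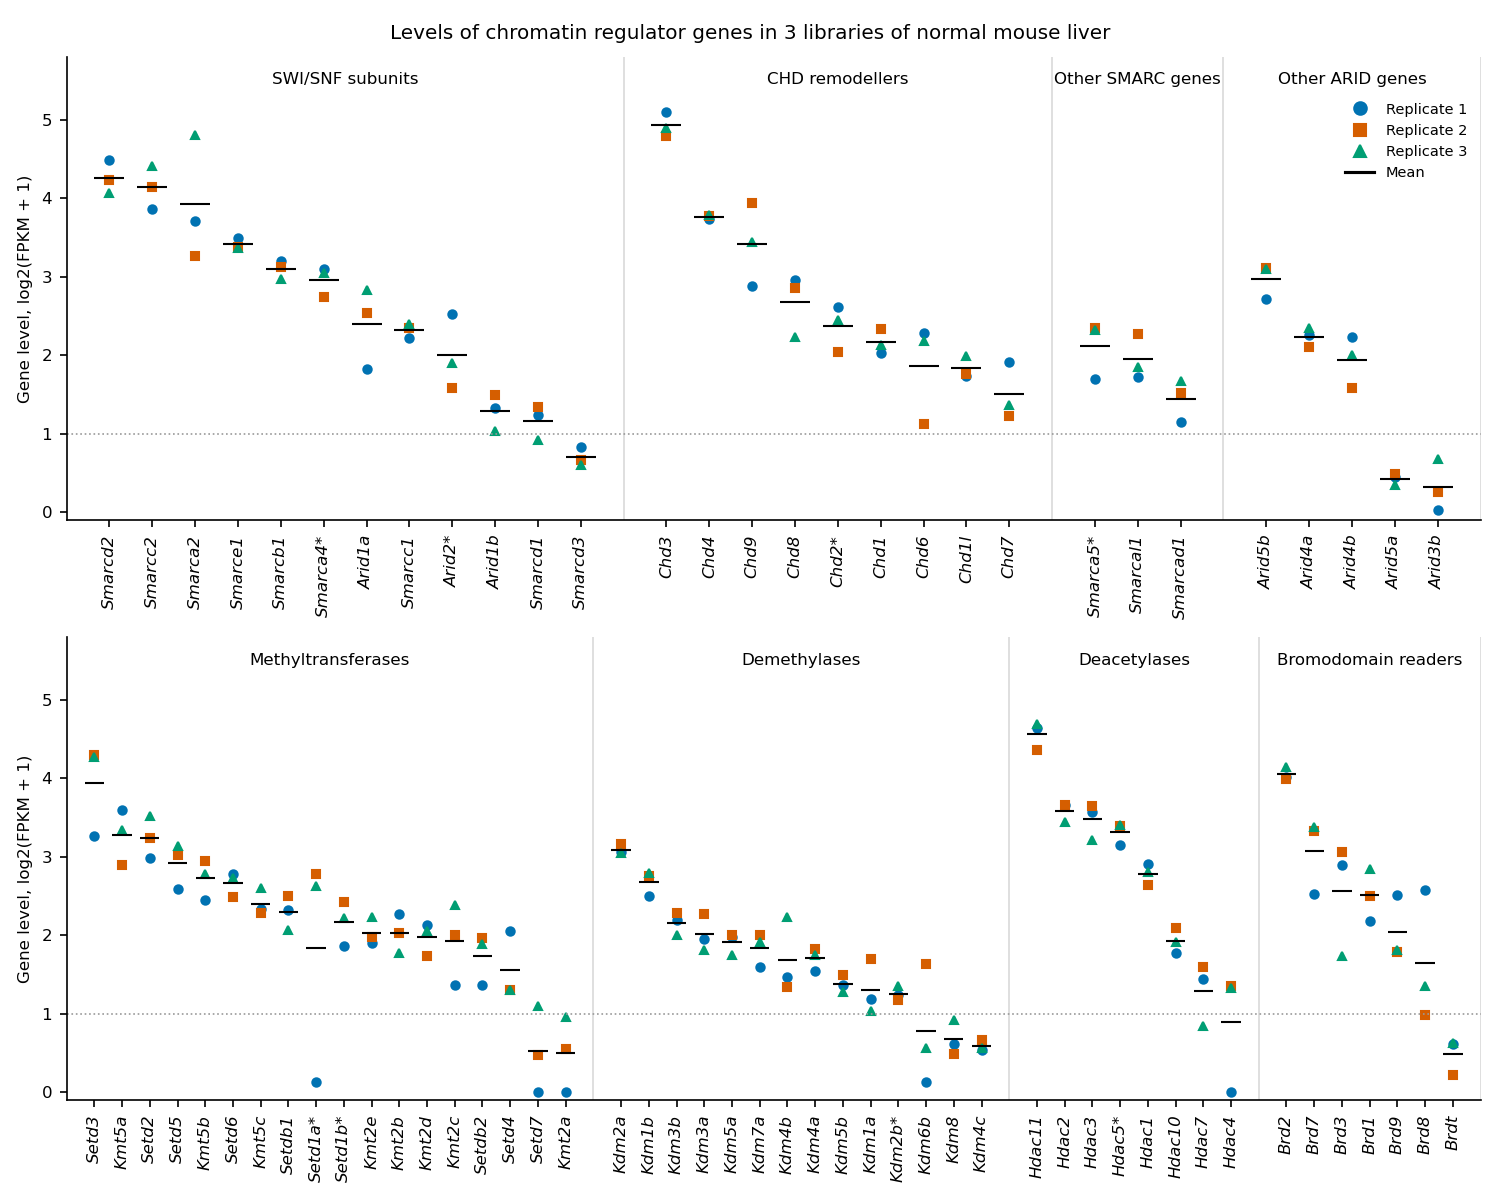
Gene level as log2(FPKM + 1) on the vertical axis for 76 family genes, grouped by family and ordered by mean FPKM, with a point for each of the 3 libraries, a bar for their mean and a dotted line at 1 FPKM. An asterisk marks the 8 genes placed by position only. Chd3, Hdac11 and Smarcd2 are the highest, and Smarca2, Brd8 and Setd1a have widely spaced points.

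Among SWI/SNF subunits, 9 of 10 members reached 1 FPKM and the family median was 6.04 FPKM. Smarcd2, an accessory subunit of the complex on chromosome 11 (106263179 to 106272972, minus strand, GRCm38), was the highest, with 21.4, 17.8 and 15.8 FPKM in replicates 1 to 3 (18.3 ± 2.87, SD, n = 3). Its relatives Smarcd1, at 1.35, 1.54 and 0.894 FPKM, and Smarcd3, at 0.774, 0.590 and 0.519 FPKM, lay below it in every library. Smarcd3 was the lowest subunit listed.

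The scaffold subunit Smarcc2 had 13.5, 16.7 and 20.3 FPKM, and its paralog Smarcc1 had 3.66, 4.07 and 4.25 FPKM. The ATPase subunit Smarca2, which alternates with Smarca4 as the motor of the complex, had 12.1, 8.61 and 27.1 FPKM, and replicate 3 stood far above the other libraries. Smarca4, placed by position, was steadier, with 7.54, 5.71 and 7.26 FPKM. The Smarca2 values sum all its first exons, and starts far inside the gene held most of replicate 3. From its annotated gene start alone Smarca2 had 9.37, 7.53 and 4.55 FPKM. The first exon of Smarca4 had 5.15, 5.71 and 6.81 FPKM, so the order turned in replicate 3. Smarcb1 and Smarce1, core subunits without a close paralog, differed little between libraries, at 7.59 ± 0.667 and 9.66 ± 0.506 FPKM (SD, n = 3).

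Of the DNA-binding ARID subunits, Arid1a had 2.54, 4.80 and 6.15 FPKM and Arid1b had 1.52, 1.82 and 1.04 FPKM. Their values did not overlap, and the smallest gap was in replicate 1. Arid2, the ARID subunit of the PBAF form, had 4.75, 2.0 and 2.75 FPKM by position. ARID genes outside SWI/SNF were led by Arid5b, a partner of the demethylase Phf2, with 5.55, 7.63 and 7.57 FPKM, while Arid5a had 0.370, 0.403 and 0.267 FPKM. Arid3b was the lowest of all members, at 0.0232, 0.199 and 0.60 FPKM. Arid4b and Arid4a, subunits of the Sin3 deacetylase complex, lay close together: Arid4b had 3.72, 2.01 and 2.99 FPKM and Arid4a had 3.77, 3.30 and 4.07 FPKM.

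All 8 CHD remodellers among the members reached 1 FPKM. Chd3, an ATPase of the NuRD complex, which joins remodelling with deacetylation, had the highest level of any member, with 33.4, 26.8 and 28.9 FPKM, and the alternative NuRD ATPase Chd4 had 12.3, 12.7 and 12.8 FPKM. Chd4 was the steadiest member, with an SD of 0.03 on the log2(FPKM + 1) scale. The size of the gap depended on the kind of event. The main Chd3 last exon had 31.2, 25.8 and 24.3 FPKM, and its highest internal events had 13.6, 15.6 and 13.1 FPKM, still above Chd4 in each library. The summed first exons of Chd3 reached 6.38, 7.05 and 8.92 FPKM, below those of Chd4. The rank of Chd3 above all other members likewise rested on its last exons. Hdac11 and Smarcd2 lay above Chd3 in each library on summed first exons and on internal events, and no last exon was listed for Hdac11.

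Chd9 had 6.40, 14.3 and 9.85 FPKM, mostly from first exons inside the gene that match no annotated start, and its internal events did not exceed 2.68 FPKM. Chd8, a remodeller linked to the Wnt pathway, had 6.76, 6.25 and 3.70 FPKM, and its relative Chd7, the lowest CHD member, had 2.77, 1.35 and 1.58 FPKM. Chd1, which binds methylated lysine 4 of histone H3, had 3.07, 4.04 and 3.40 FPKM, and Chd2, placed by position, had 5.10, 3.13 and 4.48 FPKM, so these values overlapped. The other SMARC genes were modest: Smarcal1, which anneals DNA strands at stalled forks, had 2.32, 3.83 and 2.62 FPKM, Smarcad1 had 1.22, 1.87 and 2.20 FPKM, and Smarca5, the ISWI ATPase placed by position, had 2.25, 4.08 and 4.01 FPKM.

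Methyltransferases had a median of 3.53 FPKM, and 14 of 16 members reached 1 FPKM. Setd3, which in mammals methylates a histidine of actin, was the highest, with 8.65, 18.6 and 18.4 FPKM, and replicate 1 held less than the other libraries. Kmt5a, which adds the first methyl group to lysine 20 of histone H4, had 11.1, 6.42 and 9.14 FPKM, and Kmt5b, which adds a further one, had 4.46, 6.72 and 5.86 FPKM. Setd2, the enzyme that trimethylates lysine 36 of histone H3, averaged 8.58 ± 1.79 FPKM (SD, n = 3).

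The enzymes for lysine 4 of histone H3 were lower. Kmt2a, the lowest methyltransferase, had 0, 0.466 and 0.950 FPKM, below its paralog Kmt2b at 3.82, 3.10 and 2.43 FPKM in every library. The last exons listed for Kmt2a lie far upstream of the annotated end of the gene, so its level is a weak lower bound. On first exons alone Kmt2b had 2.25, 2.24 and 1.81 FPKM, a smaller gap with the same order. Kmt2d had 3.39, 2.34 and 3.15 FPKM and Kmt2c had 1.59, 3.01 and 4.25 FPKM, and their order changed between libraries. Setd1a had 0.0906, 5.88 and 5.16 FPKM, from first exons alone since no other event of it was listed, so its low value in replicate 1 is a weak lower bound. Setd1b had 2.64, 4.38 and 3.64 FPKM. Of the enzymes for lysine 9, Setdb1 had 3.99, 4.68 and 3.18 FPKM and Setdb2 had 1.58, 2.90 and 2.69 FPKM. Setd7, the other methyltransferase under 1 FPKM, had 0, 0.386 and 1.14 FPKM.

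Demethylases had a median of 2.34 FPKM, below those of methyltransferases and deacetylases, and 10 of 13 members reached 1 FPKM. Kdm2a, which acts on lysine 36 of histone H3, was the highest and among the steadiest members, with 7.34, 7.97 and 7.29 FPKM, and Kdm2b, placed by position, had 1.36, 1.25 and 1.56 FPKM. Of the flavin-dependent demethylases, Kdm1a had 1.28, 2.25 and 1.05 FPKM and Kdm1b had 4.66, 5.74 and 5.94 FPKM, so Kdm1a was the lower gene in every library. Kdm3b (3.58, 3.88 and 3.0 FPKM) and Kdm3a (2.87, 3.84 and 2.52 FPKM), which act on lysine 9, overlapped.

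Kdm4a had 1.92, 2.55 and 2.36 FPKM and Kdm4c, the lowest demethylase, had 0.456, 0.585 and 0.478 FPKM. Kdm5a, which removes methyl groups from lysine 4, had 2.93, 3.02 and 2.36 FPKM and its paralog Kdm5b had 1.59, 1.82 and 1.42 FPKM. The remaining demethylases under 1 FPKM were Kdm8, at 0.536, 0.398 and 0.900 FPKM, and Kdm6b, an eraser of lysine 27 methylation induced in many cells by inflammatory signals, at 0.0959, 2.12 and 0.478 FPKM.

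All 7 deacetylase members averaged at least 1 FPKM, with a median of 5.90 FPKM. Hdac11, the class IV enzyme, which also removes fatty acyl groups, was the highest, with 24.0, 19.5 and 24.7 FPKM. The nuclear class I enzymes followed: Hdac2 had 11.7, 11.6 and 9.85 FPKM, Hdac1, its partner in NuRD and Sin3 complexes, had 6.50, 5.21 and 5.97 FPKM, and Hdac3, the enzyme of the NCoR complex, had 10.9, 11.5 and 8.28 FPKM. Class IIa enzymes, which shuttle between nucleus and cytoplasm, were uneven. Hdac5, placed by position, had 7.88, 9.54 and 9.63 FPKM, Hdac7 had 1.72, 2.02 and 0.794 FPKM, and Hdac4, the lowest deacetylase listed, had 0, 1.55 and 1.5 FPKM.

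Bromodomain genes had a median of 5.09 FPKM. Brd2, a BET protein that carries a pair of bromodomains, was the highest and steady, with 15.1, 14.9 and 16.6 FPKM. Brd3, another BET protein, had 6.45, 7.36 and 2.33 FPKM, with replicate 3 far lower. The testis BET gene Brdt was the lowest, at 0.536, 0.160 and 0.544 FPKM. Brd7, a PBAF subunit, had 4.77, 9.08 and 9.37 FPKM, and Brd9, a subunit of the noncanonical form of SWI/SNF, had 4.69, 2.45 and 2.52 FPKM. Brd8 had the widest spread of the members at 1 FPKM or more, with 4.99, 0.986 and 1.55 FPKM.

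In 26 pairs of related genes, the difference in log2(FPKM + 1) had the same sign in all 3 libraries for 22 pairs and exceeded 2 SD for 15. Pairs of unrelated genes were not counted, so these counts cannot be read as particular to related genes. With 3 libraries an exact sign-flip test cannot give a 2-sided p below 0.25, so no p is given. The widest differences were Smarcd2 minus Smarcd3, 3.56 ± 0.10, Smarcd1 minus Smarcd2, -3.09 ± 0.19, Arid5b minus Arid5a, 2.55 ± 0.26, and Hdac5 minus Hdac4, 2.43 ± 0.63 (SD, n = 3). These sizes depended on the setting. On last exons alone Smarcd2 minus Smarcd3 was 1.38 and Smarcd1 minus Smarcd2 -0.69, and with a pseudocount of 0.1 Arid5b minus Arid5a was 3.97 and Hdac5 minus Hdac4 3.82. Hdac3 minus Hdac7 was 2.18 ± 0.17, Kdm2a minus Kdm2b 1.84 ± 0.15 and Smarcc2 minus Smarcc1 1.82 ± 0.19.

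In 8 pairs the second gene was higher in each library. Among them, Kmt2a minus Kmt2b was -1.52 ± 0.73, Kdm1a minus Kdm1b -1.37 ± 0.36, Smarca4 minus Smarca2 -0.97 ± 0.69 and Hdac1 minus Hdac2 -0.81 ± 0.20, each in 3 of 3 libraries. Smarca4 minus Smarca2 was -0.57 without replicate 3 and -0.50 on last exons alone, Hdac1 minus Hdac2 was -3.22 on last exons alone, and Kmt2a minus Kmt2b was -3.02 with a pseudocount of 0.1. The last exons listed for Hdac1 lie upstream of the annotated end of the gene, so its level on last exons is a weak lower bound. From the annotated gene start of Smarca2 alone, its order with Smarca4 turned in replicate 3, and the level of Kmt2a is a weak lower bound. Chd4 minus Chd3 was -1.17 ± 0.18 but 0.62 on summed first exons alone, where its sign turned. The last exon listed for Smarcc2 had 0.0922, 0.0758 and 0.112 FPKM, and on last exons alone Smarcc2 minus Smarcc1 came to -0.0038. Kdm5a minus Kdm5b (0.53 ± 0.07) and Kdm3b minus Kdm3a (0.15 ± 0.12) also turned on first exons alone, to -0.25 and -0.27.

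No common order appeared for Chd1 and Chd2, Kmt2d and Kmt2c, Kmt5a and Kmt5b, and Setd1a and Setd1b, where libraries differed in sign. The remaining differences held their sign in each library. Brd2 minus Brd3 was 1.48 ± 0.80, Chd8 minus Chd7 1.18 ± 0.40, Kdm4a minus Kdm4c 1.12 ± 0.10, Arid1a minus Arid1b 1.11 ± 0.66 and Brd7 minus Brd9 1.04 ± 0.88. Setdb1 minus Setdb2 was 0.56 ± 0.39 and Arid4b minus Arid4a -0.29 ± 0.25. Of these, Kdm4a minus Kdm4c was 1.97 with a pseudocount of 0.1, Brd7 minus Brd9 0.36 on first exons alone, Setdb1 minus Setdb2 0.06 by identifier, and Arid4b minus Arid4a -0.52 on first exons alone, -0.51 on last exons alone and -0.18 without replicate 2.

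**Figure D2:**
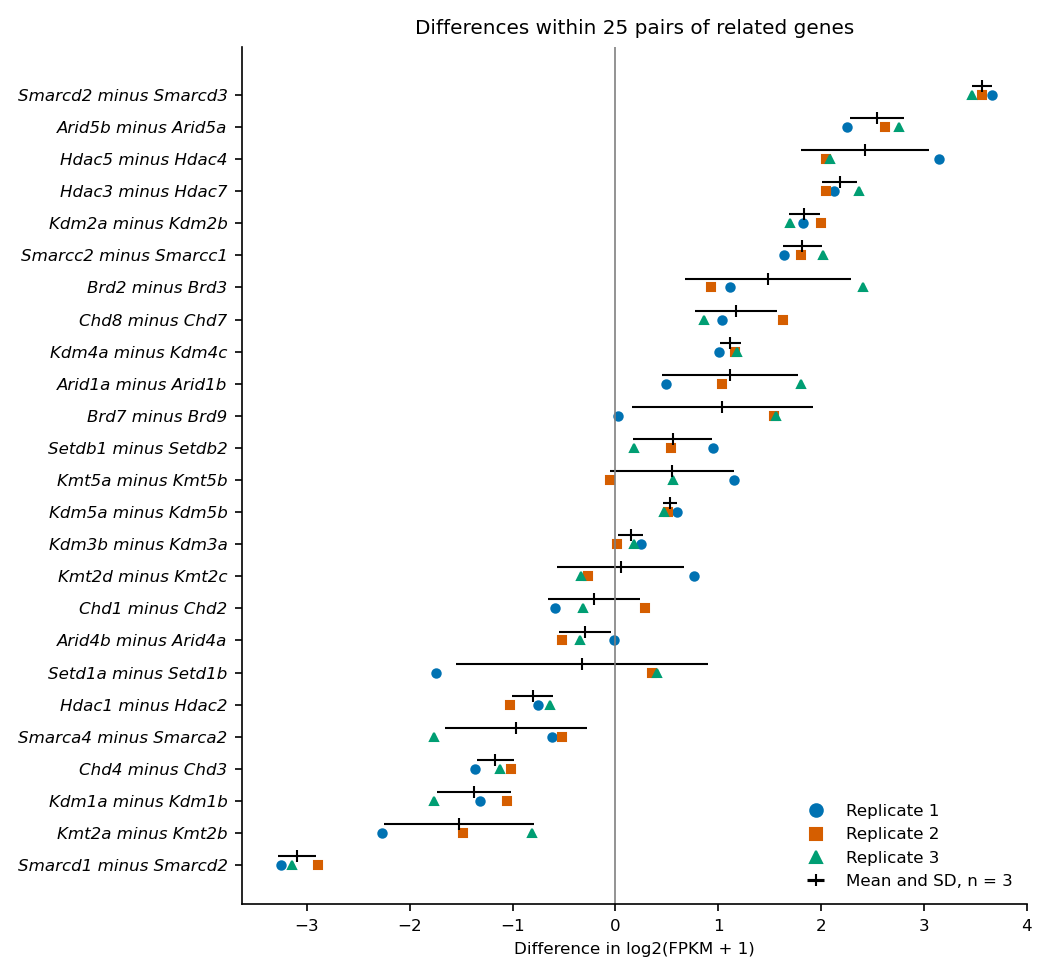
Difference in log2(FPKM + 1) between the first and second gene of 25 pairs, one row per pair, with a point for each library and a bar for the mean and SD (n = 3). Points of 21 pairs lie on 1 side of zero, among them Smarcd2 minus Smarcd3 at 3.56 and Smarcd1 minus Smarcd2 at -3.09.

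Partners outside the 8 families were mostly expressed: of 76 genes in 8 lists, 73 had a value and 70 a mean of at least 1 FPKM. Over all protein-coding autosomal genes 56.6% had a value, and 76.7% of those had a mean of at least 1 FPKM. NuRD partners were the highest list, with 9 of 9 genes at that level and a median of 10.1 FPKM, led by the methyl-DNA-binding family proteins Mbd3 (25.2 ± 2.08 FPKM) and Mbd2 (17.5 ± 4.36 FPKM) and the histone chaperone Rbbp4 (15.2 ± 1.80 FPKM; SD, n = 3). Of the SWI/SNF partners, 10 of 13 reached 1 FPKM with a median of 4.03 FPKM among those with a value. The actin-related subunit Actl6a had 7.12 ± 1.62 FPKM while its neuronal counterpart Actl6b and Dpf1, also mainly neuronal, were not listed. COMPASS partners, which serve the lysine 4 methyltransferases, had 10 of 11 genes at 1 FPKM or more and a median of 4.77 FPKM, with Dpy30 at 14.8 ± 5.41 FPKM; Pagr1a was not listed.

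All 11 deacetylase corepressors reached 1 FPKM (median 5.11 FPKM), with Sin3b at 27.5 ± 2.60 FPKM and its paralog Sin3a at 3.95 ± 1.12 FPKM. The NAD-dependent sirtuins all did so too (7 of 7, median 6.22 FPKM), led by the mitochondrial Sirt3 at 39.9 ± 6.73 FPKM. Acetyltransferases, the writers of the mark that Brd proteins read, had 8 of 9 genes at that level and a median of 3.69 FPKM, with Kat2b at 15.8 ± 2.85 FPKM. A list of other methyltransferases and the Polycomb subunits Eed and Suz12 had 11 of 12 genes at that level (median 3.99 FPKM). Ehmt2, which methylates lysine 9, had 15.1 ± 1.41 FPKM, and the Polycomb enzyme of dividing cells, Ezh2, had 1.43 ± 0.63 FPKM. The 4 other JmjC proteins had a median of 3.58 FPKM.

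Between libraries the members were slightly less even than other genes. The median SD of log2(FPKM + 1) was 0.235 over the 60 members at 1 FPKM or more, against 0.214 over 9033 genes. The members were also less often abundant, and whether level plays a part in this small gap was not tested. The highest library held over 2 times the lowest for 23.3% of these members, against 17.4% of all genes. Besides genes named above, these were Chd6, at 3.88, 1.18 and 3.54 FPKM, Kdm4b, at 1.77, 1.54 and 3.71 FPKM, and Setd4, at 3.16, 1.46 and 1.46 FPKM. No library was low throughout: replicate 1 was the lowest for 25 members and the highest for 17, replicate 2 for 16 and 23, and replicate 3 for 19 and 20.

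The members had 853 distinct events, a median of 9 per gene, against 5 per gene over all protein-coding autosomal genes. Smarca2 had the most, 62. Retained introns made up 23.2% of member events and 15.9% of all events, and last exons 10.4% of member events and 15.4% of all. Cassette exons took 22.0% of member events and 22.6% of all. Of the member events, 21 under the identifiers of Setdb2, Chd1, Kmt2d and Chd8 could not be placed on those genes. They stay in the counts and shares of this paragraph and in levels by identifier, and were left out of the main levels of those genes.

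Cassette exons are exons that some transcripts include and others skip. Both forms were listed in at least 1 library for 40 cassette exons of 22 members. In 38 tested, the 2 forms differed for 20, or 52.6%, against 71.4% of 3782 cassette exons in all genes, in limma on log2(FPKM + 1) of the form with the exon minus the form without it, with Benjamini-Hochberg adjustment over all of them. The form with the exon was higher for 7 and lower for 13 (18.4% and 34.2%), against 40.5% and 31.0% of all cassette exons. The 7 that were higher are 6 distinct exons, since the 106-base Smarca2 exon was tested with either upstream neighbour. All are coding, against 85.2% of the 1530 that were higher over all genes.

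Several of the exons lie in the coding sequence and change the protein without shifting its frame. They are shown because inclusion of them defines the isoforms discussed next; capitals mark the exon and lower case the 12 coding bases on each side, in the transcript orientation 5′ to 3′ from GENCODE M21.
Smarca2, chr19:26759878-26759931, plus strand: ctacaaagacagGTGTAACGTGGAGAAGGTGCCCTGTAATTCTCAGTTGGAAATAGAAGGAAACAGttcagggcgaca
Smarca4, chr9:21677953-21678051, plus strand: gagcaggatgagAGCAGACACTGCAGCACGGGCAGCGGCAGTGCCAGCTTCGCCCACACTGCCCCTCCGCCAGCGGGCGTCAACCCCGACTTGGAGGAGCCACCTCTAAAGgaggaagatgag
Smarcc2, chr10:128481682-128481774, plus strand: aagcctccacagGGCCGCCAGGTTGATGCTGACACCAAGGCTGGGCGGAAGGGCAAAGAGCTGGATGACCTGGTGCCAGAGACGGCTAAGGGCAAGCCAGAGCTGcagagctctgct
Brd3, chr2:27453400-27453450, minus strand: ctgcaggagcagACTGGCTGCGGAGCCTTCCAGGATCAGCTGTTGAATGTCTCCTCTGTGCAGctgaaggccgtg
Chd3, chr11:69348710-69348811, minus strand: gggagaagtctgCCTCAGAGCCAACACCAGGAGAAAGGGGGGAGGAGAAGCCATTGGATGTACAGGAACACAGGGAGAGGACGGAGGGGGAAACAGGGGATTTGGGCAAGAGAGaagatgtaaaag
Kdm1a, chr4:136582040-136582099, minus strand: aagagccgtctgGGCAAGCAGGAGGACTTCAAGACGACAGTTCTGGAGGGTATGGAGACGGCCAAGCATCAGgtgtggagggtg
Kmt5b, chr19:3796640-3796708, plus strand: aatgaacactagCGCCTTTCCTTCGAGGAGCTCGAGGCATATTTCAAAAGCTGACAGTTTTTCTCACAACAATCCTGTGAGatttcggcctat

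The 3 SWI/SNF subunits with such an exon used it unequally. The form with the 93-base exon 18 of Smarcc2 had 0.517, 1.34 and 6.37 FPKM and the form without it 10.2, 13.4 and 13.9 FPKM. The exon was mostly skipped in each library, with a log2 difference of -2.18 ± 1.01 (SD, n = 3; limma, adjusted p = 0.0114), and the call was lost without replicate 1 (adjusted p = 0.0570) and without replicate 2 (adjusted p = 0.0630). For the 99-base exon 24 of Smarca4 the form with the exon had 0.889, 0 and 0 FPKM and the skipped form 5.61, 5.71 and 6.81 FPKM (-2.51 ± 0.62, limma, adjusted p = 0.00307). The Smarca4 exon could not be tested without replicate 1, the only library that listed the form with it.

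The 54-base exon 29 of Smarca2 followed no common direction. The form with it had 1.14, 7.45 and 6.25 FPKM and the form without it 10.7, 0.790 and 15.7 FPKM, so inclusion was 9.63%, 90.4% and 28.5% in replicates 1 to 3 (-0.47 ± 2.43, limma, adjusted p = 0.679). Replicates 1 and 3 mostly skipped it and replicate 2 mostly kept it. Where the 54-base exon was skipped, the 106-base exon after it was kept at 10.7, 0.790 and 15.7 FPKM against 0.0443, 0.0333 and 0 FPKM without it (limma, adjusted p = 0.0231, lost without replicate 1 at 0.113 and without replicate 3 at 0.0948).

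Brd3 nearly always lacked its 51-base exon 9, with 0.0208, 0.475 and 0.0334 FPKM with the exon and 6.37, 6.83 and 2.33 FPKM without it (-2.32 ± 0.59, limma, adjusted p = 0.00371). The 102-base exon 33 of Chd3 was used in both forms, with 2.49, 5.65 and 7.76 FPKM with it and 2.86, 1.71 and 3.80 FPKM without it (0.67 ± 0.74, limma, adjusted p = 0.161). The 69-base exon 6 of Kmt5b had 4.41, 3.90 and 3.71 FPKM with it and 0, 2.82 and 2.10 FPKM without it (1.13 ± 1.14, limma, adjusted p = 0.101). The 60-base exon 3 of Kdm1a was listed at 0, 0.909 and 0.940 FPKM in the form with it and at 0.753, 0.505 and 0.0281 FPKM in the form without it, so the libraries went different ways (limma, adjusted p = 0.775).

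Exon 3 of Hdac5, placed by position, came in versions of 72 and 75 bases that differ at the acceptor site. Aligned from the upstream exon, the longer version carries 3 further bases, which follow the first 12 letters.
Hdac5, 72 bases, chr11:102218416-102218487, minus strand: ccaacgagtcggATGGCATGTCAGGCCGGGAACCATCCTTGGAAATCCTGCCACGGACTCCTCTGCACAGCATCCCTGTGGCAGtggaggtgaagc
Hdac5, 75 bases, chr11:102218416-102218490, minus strand: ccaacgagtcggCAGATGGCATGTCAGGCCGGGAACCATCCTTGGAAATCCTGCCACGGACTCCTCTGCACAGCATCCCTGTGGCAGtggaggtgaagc
The shorter version had 6.32, 8.67 and 2.13 FPKM and the longer one 0, 0.466 and 4.24 FPKM, so the shorter one led in replicates 1 and 2 and the longer one in replicate 3.

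Exons annotated in transcripts marked for nonsense-mediated decay and in no coding transcript made up 7 of the 40 (17.5%), against 8.87% of 4399 cassette exons in all genes. Such exons typically bring a premature stop codon, and decay then removes the transcript. The form with the exon was lower for 5 of these 7, or 71.4%, against 75.5% of 330 such exons tested over all genes. Setd2 kept a 52-base exon of this kind (chr9:110609998-110610049) at 0.732, 0.616 and 0.400 FPKM, against 6.06, 7.47 and 7.37 FPKM without it (-2.33 ± 0.28, limma, adjusted p = 0.00170). Arid4b had 0.0726, 0.0686 and 0.0799 FPKM with a 153-base exon and 2.0, 1.13 and 0.621 FPKM without it (-1.02 ± 0.45, limma, adjusted p = 0.0428, lost without replicate 2 at 0.128 and without replicate 3 at 0.0699).

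Brd2 and Setd4 had such exons with no call. A 31-base exon of Setd4 had 0.912, 0.341 and 0.606 FPKM with it and 1.02, 1.12 and 0 FPKM without it (limma, adjusted p = 0.967), and inclusion was 47.3%, 23.3% and 100%. The 92-base Brd2 exon is shown with the 12 coding bases before it and the 19 bases after it, the last 3 of which are the stop codon reached in the decay transcript.
Brd2, chr17:34116598-34116689, minus strand: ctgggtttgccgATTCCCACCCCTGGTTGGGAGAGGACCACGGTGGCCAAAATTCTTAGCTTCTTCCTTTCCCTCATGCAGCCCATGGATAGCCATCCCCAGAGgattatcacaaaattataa
The form with this exon had 9.39, 5.83 and 4.72 FPKM and the form without it 5.5, 8.66 and 11.8 FPKM (-0.33 ± 0.93, limma, adjusted p = 0.508). Inclusion was 63.1%, 40.2% and 28.5% in replicates 1, 2 and 3, the highest mean level of a decay-linked form among the members' cassette exons.

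Setd3 stood at the other end. Its 149-base exon 4 (chr12:108160233-108160381) was kept at 8.49, 18.5 and 18.2 FPKM, against 0.116, 0.102 and 0.0847 FPKM without it (3.79 ± 0.61, limma, adjusted p = 8.89e-04). The remaining exons with high minor forms varied between libraries. Exon 7 of Kdm3b, 600 bases long, had 2.18, 2.53 and 3.0 FPKM with it and 1.41, 1.35 and 0 FPKM without it (limma, adjusted p = 0.0884). A 35-base exon of Smarca2 had 0, 0 and 10.3 FPKM with it and 2.31, 0.417 and 3.32 FPKM without it (limma, adjusted p = 0.718), a 116-base exon of Kmt5a 0, 0 and 4.66 FPKM with it and 1.22, 0.0098 and 1.67 FPKM without it (limma, adjusted p = 0.967), and a 73-base exon of Kmt2e 0.252, 0 and 2.34 FPKM with it and 2.39, 2.14 and 1.20 FPKM without it (limma, adjusted p = 0.225). An unannotated 41-base exon of Setd5 was listed with 2.84 FPKM in replicate 3 only, against 4.03, 5.48 and 3.32 FPKM without it (limma, adjusted p = 0.0495, lost without replicate 1 at 0.197 and without replicate 2 at 0.204). For each of these 5 exons, Kdm3b included, the form with the exon was highest in replicate 3.

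Of the 20 calls, 6 held without each library in turn (Brd3 51 bases, Kmt2d 48 bases, Kmt2e 115 bases, Setd2 52 bases, and Setd3 123 and 149 bases), 13 were lost without at least 1 library, and no sign changed.

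Retained introns are introns left in some transcripts of a gene. Both forms were listed for 43 introns of 27 members, and in 36 tested the forms differed for 25, or 69.4%, against 69.3% of 2678 introns in all genes. The form with the intron was lower for 23 (63.9%, against 64.3% of all) and higher for 2 (5.56%, against 5.0% of all), so these shares were close to those of all introns. Of the 43 introns, 44.2% were 300 bases or shorter, against 40.9% of all introns.

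The best spliced introns named here were in abundant members. An intron of 145 bases in Smarcd2 (chr11:106265038-106265182) was kept at 0.00954, 0.0107 and 0.236 FPKM and spliced at 21.4, 17.8 and 15.8 FPKM (-4.15 ± 0.36, limma, adjusted p = 0.00172). In Brd2, an intron of 172 bases (chr17:34114178-34114349) was kept at 0.141, 0.118 and 0.0965 FPKM and spliced at 14.7, 14.5 and 16.5 FPKM (-3.86 ± 0.12, limma, adjusted p = 0.00172). Smarcc2 kept an intron of 273 bases at 0.0922, 0.0758 and 0.112 FPKM and spliced it at 10.7, 14.8 and 20.3 FPKM (-3.85 ± 0.42, limma, adjusted p = 0.00176). For these 3 introns every library gave a retained share under 2%.

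Hdac3 and Chd4 had introns with a larger kept share in 1 library. A 249-base intron of Hdac3 was kept at 0.717, 1.53 and 0.322 FPKM and spliced at 10.1, 9.95 and 7.95 FPKM (limma, adjusted p = 0.00292), and a 377-base intron of it at 0.979, 0.0469 and 0.0073 FPKM against 7.98, 9.95 and 7.95 FPKM (limma, adjusted p = 0.00322). The 84-base intron of Chd4 was kept at 0.809, 0.0759 and 0.0917 FPKM and spliced at 8.49, 12.3 and 9.79 FPKM (limma, adjusted p = 0.00288). In the 377-base and 84-base introns, replicate 1 held most of the kept form.

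Longer introns differed in how much was kept. A 2535-base intron of Kmt5c, which trimethylates lysine 20 of histone H4, was kept at 1.15, 0.92 and 0.993 FPKM and spliced at 2.75, 2.78 and 3.85 FPKM (limma, adjusted p = 0.0234). Setdb1 kept a 1080-base intron at 1.39, 1.40 and 0.717 FPKM and spliced it at 2.59, 3.28 and 2.47 FPKM (limma, adjusted p = 0.0452), and Brd8 kept a 1177-base intron at 0.568, 0.0012 and 9.68e-04 FPKM and spliced it at 2.75, 0.983 and 1.53 FPKM (limma, adjusted p = 0.0153). These 3 calls were each lost without any 1 of the libraries, with adjusted p between 0.0621 and 0.226.

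Other introns had forms that did not pass the test. Hdac10, which deacetylates polyamines, had a 278-base intron kept at 2.01, 1.29 and 0.731 FPKM and spliced at 0.429, 1.97 and 1.51 FPKM (limma, adjusted p = 0.916). The dominant form changed between libraries.

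The same held for a 2109-base intron of Arid4b (kept 1.65, 0 and 1.04 FPKM, spliced 0.863, 1.13 and 0.621 FPKM; limma, adjusted p = 0.869) and a 331-base intron of Kmt5c (kept 0, 1.23 and 2.14 FPKM, spliced 2.69, 1.45 and 1.60 FPKM; limma, adjusted p = 0.339). A 983-base intron near the end of Chd3 was kept at 0, 3.87 and 7.03 FPKM and spliced at 13.6, 15.6 and 13.1 FPKM (-2.15 ± 1.56, limma, adjusted p = 0.0385, lost without replicate 1 at 0.0941 and without replicate 2 at 0.0721). Introns of Kdm3b (769 bases), Chd8 (205 bases) and Kdm2a (1786 bases) had adjusted p of 0.0876, 0.0556 and 0.0733 in limma, each with 0 FPKM of the kept form in at least 1 library. The Kdm3b intron has the same values as the 600-base Kdm3b exon above with the forms exchanged, so it is not a separate result. The kept form was higher for a 107-base intron of Brd2, at 13.5, 14.5 and 14.1 FPKM against 1.35, 0 and 0 FPKM (limma, adjusted p = 0.00287), and for an 82-base intron of Brd1, at 1.16, 2.51 and 3.70 FPKM against 0.565, 0 and 0 FPKM (limma, adjusted p = 0.0324, lost without replicate 2 at 0.115 and without replicate 3 at 0.125). Neither of these is annotated as an intron. Neither could be tested without replicate 1, the only library that listed the spliced form.

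**Figure D3:**
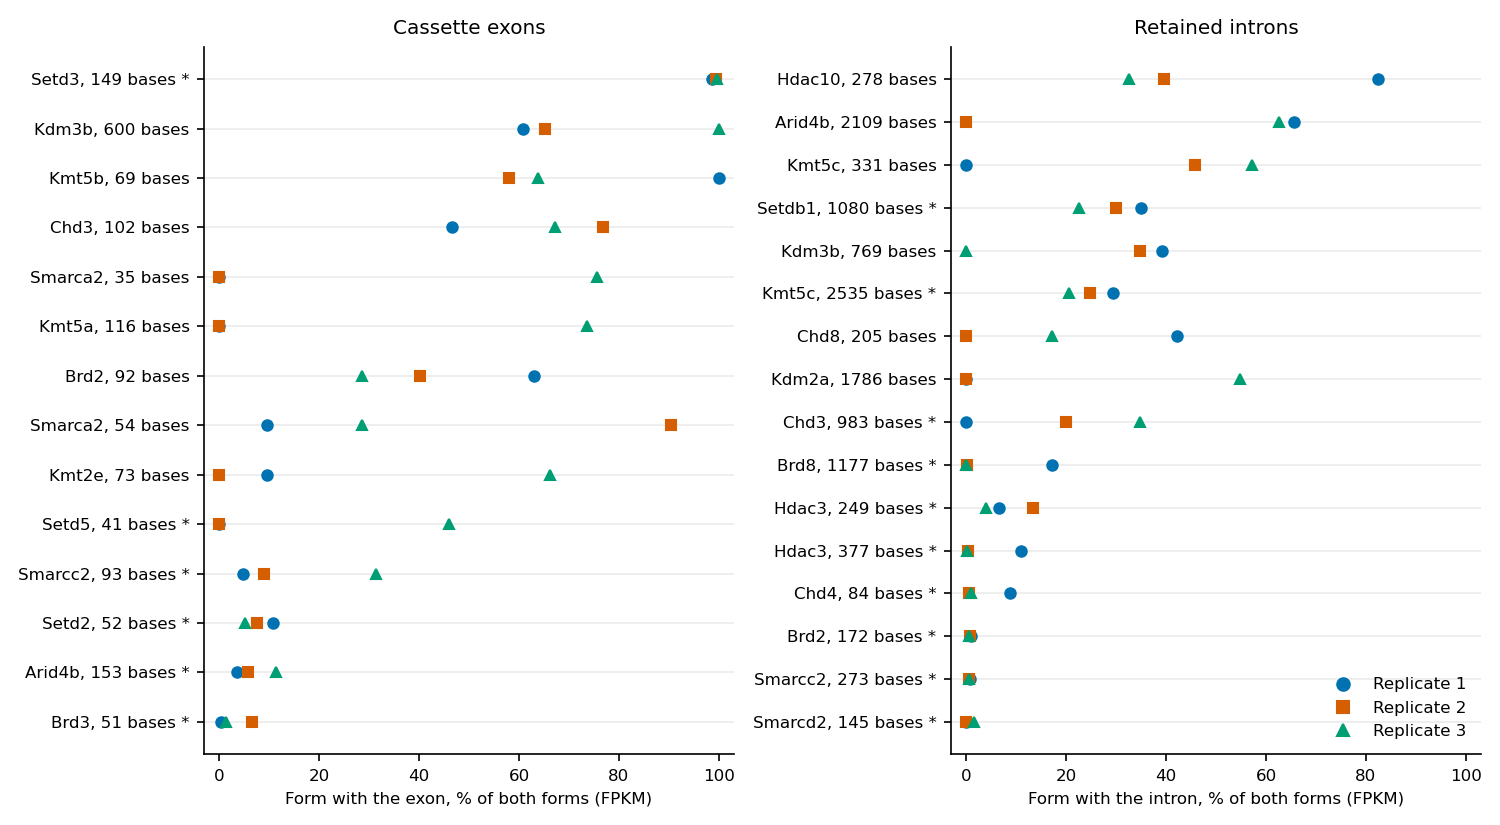
Share of the form with the exon (left) or with the intron (right) in the summed FPKM of both forms, in percent on the horizontal axis, for 14 cassette exons and 16 retained introns, with a point per library and an asterisk where limma called a difference. Setd3 (149 bases) lies near 100% and Brd3 (51 bases) near 0%, while the points of Smarca2 (54 bases) run between 9.63% and 90.4%.

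Several first exons, each listed in all 3 libraries and holding at least 10% of the gene's summed first exon FPKM, were found for 14 of 66 members with a first exon (21.2%), against 12.1% of 10838 protein-coding autosomal genes. They were Arid4b, Brd2, Brd9, Chd3, Kdm1a, Kdm2a, Kdm4a, Kdm4b, Kmt5a, Kmt5c, Setd5, Smarca2, Smarcad1 and Smarcd2. First exons with the same start and another end counted as different ones, as in Kmt5c and Smarcad1. The 10% was taken on the mean over libraries, so 1 library could carry it. For example, the second first exon of Kdm4b had 7.43e-04, 0.00416 and 2.06 FPKM in replicates 1 to 3. Another start can mean another promoter and another start of the protein. Starts here are the ends of assembled transcripts, and some lie close together. Whether each marks a promoter of its own was not tested.

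Chd3 kept the same order of its pair of starts in each library. The first exon at 69364692 to 69364779 of chromosome 11 had 3.82, 4.73 and 5.12 FPKM, and the one whose start lies 4627 bases upstream had 2.56, 2.33 and 3.24 FPKM. In Smarcd2 the exon at 106267334 to 106267799 of chromosome 11 had 13.8, 16.3 and 9.23 FPKM and the upstream one, 5173 bases away, 7.47, 1.45 and 6.28 FPKM, so the same start led in each library. Brd2 had 4 such first exons. The exon that led in replicate 1 had 12.2, 4.06 and 2.60 FPKM, and the one whose start lies 329 bases upstream had 1.86, 3.99 and 8.91 FPKM and led in replicate 3.

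Smarca2 differed between libraries in its leading start. Its annotated gene start had 9.37, 7.53 and 4.55 FPKM, a start 143139 bases downstream had 2.07, 0.467 and 13.0 FPKM, and one 105498 bases downstream had 0.0443, 0.0333 and 8.15 FPKM. In replicate 3, where the gene level was highest, the downstream starts were highest and the gene start was lowest. Setd5 likewise split: its upstream exon had 4.73, 1.63 and 1.55 FPKM, one 27570 bases downstream 0, 3.52 and 2.75 FPKM and one 32500 bases downstream 0.115, 1.81 and 3.08 FPKM.

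Kmt5a had a different leading first exon in each library. That at 124439930 to 124440015 of chromosome 5 had 5.84, 0 and 0 FPKM, that at 124445493 to 124445728 had 1.22, 0.0098 and 6.33 FPKM, the same start with an end at 124446084 had 0.0834, 4.65 and 0.0463 FPKM, and that at 124447199 to 124447370 had 3.77, 1.63 and 2.36 FPKM. The 150 bases before the starts that RefSeq (GRCm38.p6) gives at 124439930 and 124445499 are shown because the first exons there led in different libraries; capitals mark each CG.
Kmt5a, chr5:124439780-124439929, plus strand: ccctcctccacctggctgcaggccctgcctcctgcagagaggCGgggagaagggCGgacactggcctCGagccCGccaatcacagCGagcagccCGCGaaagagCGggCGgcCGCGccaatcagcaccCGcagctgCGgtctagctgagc
Kmt5a, chr5:124445349-124445498, plus strand: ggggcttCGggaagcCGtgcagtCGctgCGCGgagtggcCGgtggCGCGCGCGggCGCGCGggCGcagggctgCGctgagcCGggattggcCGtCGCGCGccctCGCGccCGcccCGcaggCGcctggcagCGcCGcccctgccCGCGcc
The letters CG, read on 1 strand since the other strand gives the same count, occur 13 times in the upstream window and 29 times in the downstream one. Of 32851 promoters in the RefSeq table, 20.3% hold at least 13 in a window of this length and 0.527% at least 29, and the median is 4. The 70 promoters matched to 52 members had a median of 13.

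**Figure D4:**
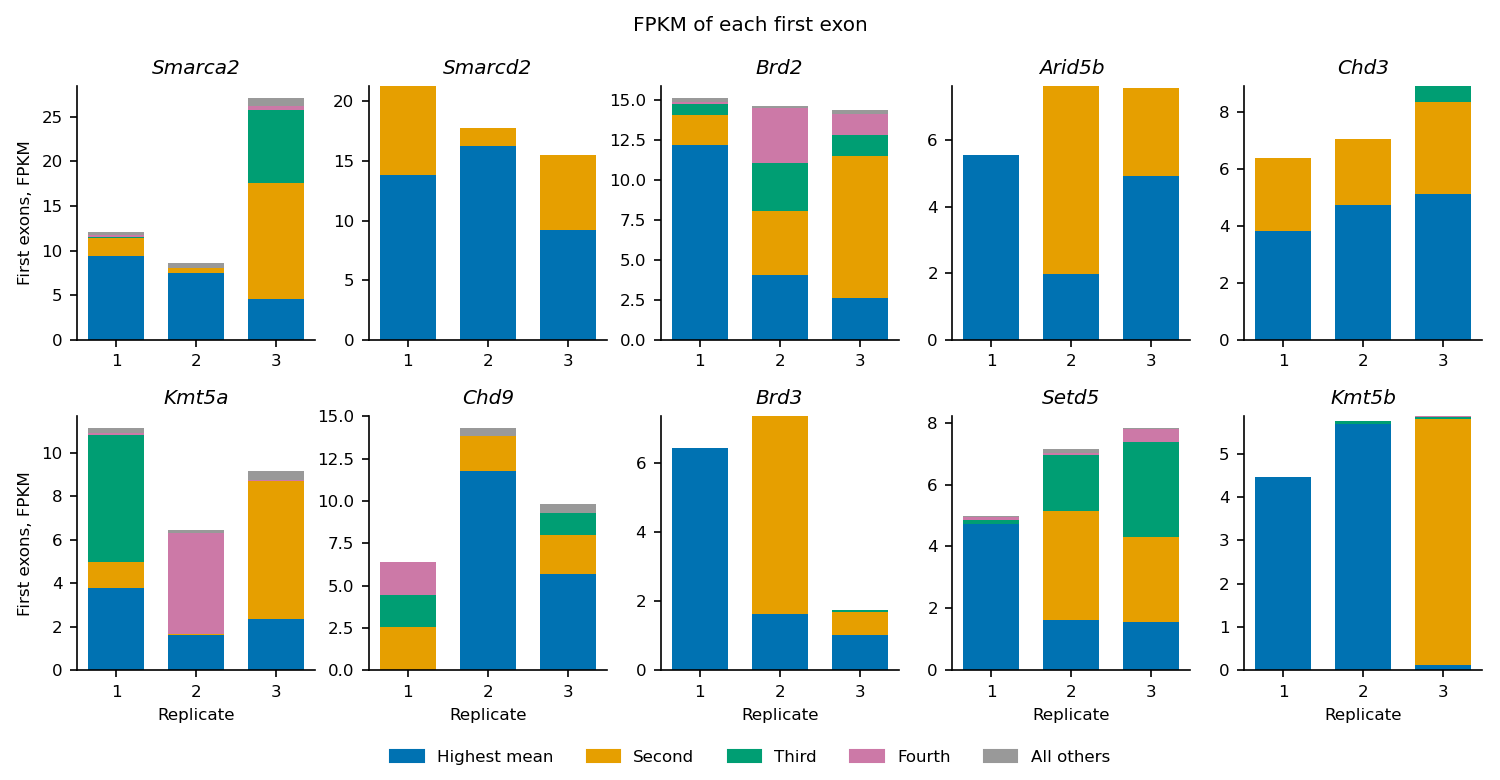
Stacked bars of first exon FPKM on the vertical axis, from 0, in 10 genes, with 1 bar per library and 1 colour per first exon. The colours change places between libraries in Kmt5a, Smarca2 and Setd5, while Chd3 keeps the order 3.82 and 2.56 FPKM of replicate 1 in the other libraries.

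Other members also had a different leading first exon between libraries, and in Chd9 and Brd3 one of them matches no annotated exon. That of Chd9 had 0, 11.8 and 5.70 FPKM, while the annotated start had 2.54, 2.06 and 2.27 FPKM. Brd3 had 6.45, 1.63 and 1.02 FPKM from its annotated start and 0, 5.72 and 0.661 FPKM from a first exon 1943 bases away that was placed by its identifier. Arid5b had 5.55, 1.99 and 4.93 FPKM at 1 start and 0, 5.64 and 2.65 FPKM at another 142114 bases away. Kmt5b had 4.46, 5.68 and 0.117 FPKM at 1 start and 0, 0 and 5.68 FPKM at another 654 bases away. In each of these genes a start that led in 1 library was listed at 0 in another.

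Last exons set where a transcript ends. In Brd7 the leading last exon had 1.76, 5.09 and 7.09 FPKM and the next 2.90, 3.92 and 2.17 FPKM, so their order changed in replicate 1. Setd2 ended at its main last exon with 6.79, 8.08 and 7.77 FPKM and at another with 0.0925, 0.170 and 2.67 FPKM. Brd8 had 3.82, 0.725 and 1.36 FPKM at its main last exon and 1.17, 0.259 and 0.176 FPKM at the next, and both were highest in replicate 1. Hdac5, placed by position, had 6.33, 9.15 and 4.25 FPKM at the leading end and 0.733, 0.00802 and 1.73 FPKM at the next.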

How the data were processed

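RNA from 3 normal liver libraries was sequenced; the labels describe total RNA and name poly(A) selection or ribosomal RNA removal without saying which was used, nor do they say whether strand was kept. Per the file headers, the deposited values are FPKM per event by the authors, taken here to add up every assembled transcript with that structure; an event at 0 has no line. Per the submitters' processing notes, HISAT2 2.0.1, cutadapt 1.9.1, DESeq2 and HTSeq 0.6.1 were used, and no tool is named for the event tables. Although these notes name mm9, positions matched GRCm38 (GENCODE M21), which is used throughout. Read counts are not in these tables, so depth is unknown and no counting interval is given. Removing identical repeated rows left 71716, 74243 and 74236 events in replicates 1, 2 and 3.

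An identifier in the tables belongs to an assembled locus, which can span neighbours, so events were placed on genes by exact first or last exon, then by splice site, then by identifier on the same strand. Levels used log2(FPKM + 1), which understates differences of low genes. Forms with and without an exon or intron were compared against 0 in limma 3.58.1 (R 4.3.3; trend and robust fits, 2-sided, adjusted p below 0.05) over all such pairs with both forms in at least 1 library and a summed mean of at least 1 FPKM. On simulated data 89% of cassette exons and 85% of introns with a true log2 ratio of 2 were recovered. These ratios were given only to pairs with a higher summed level than the filter asks for. The simulated SD was capped at the observed median and no form was missing, so real pairs may be recovered less often. P-values measure only the spread between these samples. The members, gene lists and gene pairs were chosen with earlier results of these data known. Genes named with full values were the highest and lowest member of each family, both genes of each pair and members under 1 FPKM. Chd9, Chd6, Brd8, Kdm4b, Setd4, Arid2, Smarca5, Setd2, Smarcb1 and Smarce1 lie outside that rule and were added after their values were seen. Exons and introns named were those called with both forms in all 3 libraries and the 10 of each kind with the highest minor form, and first exons those of the 10 members with the highest second one. The Smarca4, Kdm1a and Hdac5 exons, the 106-base Smarca2 and 31-base Setd4 exons and the second Kdm4b first exon were chosen after seeing their values. So were the introns with a higher kept form, the last exons and the partner genes given as examples. The values of 1 member are not reported here; it remains in the counts and medians and is left out of the figures. Alternatives were other pseudocounts, filters, level definitions and leaving out each library.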

Additional observations from a re-analysis of the deposited data

How the results depend on the processing

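There is 1 group, so no pairing of replicates between groups was possible. The forms with and without an exon or intron, and the genes of each pair, were compared within each library. Requiring both forms in all 3 libraries left 10 cassette exons with 5 calls and 12 introns with 9 calls. Without replicates 1, 2 and 3 in turn, calls were 11 of 37, 9 of 33 and 10 of 28 cassette exons tested. For introns they were 13 of 28, 15 of 34 and 17 of 32. Shares over all genes at these settings are not given, so whether the losses are particular to members was not tested. The median member level of 2.04 on the log2(FPKM + 1) scale was 1.72 from first exons alone, 1.74 from last exons alone, 2.23 by identifier, 1.67 with a pseudocount of 0.1, 2.31 over genes at 1 FPKM or more, and 2.12 with the genes placed by position, an alternative chosen after seeing the data. It lay between 2.12 and 2.15 with a library left out. The median SD was 0.296 with a pseudocount of 0.1 and between 0.180 and 0.213 with a library left out. Members with several first exons numbered 29 when 1 library sufficed, 24 with no minimum share, and between 16 and 21 with a library left out. Chd4 minus Chd3 (0.62), Kdm3b minus Kdm3a (-0.27) and Kdm5a minus Kdm5b (-0.25) turned on first exons alone, and Smarcc2 minus Smarcc1 (-0.0038) on last exons alone; the cause was not tested. Depth is unknown, so an event listed at 0 cannot be told apart from one missed at low depth.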
